A study of Homo sapiens with 12 samples.

Results

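The genes described here are the zinc finger genes of human chromosome 19 that LNCaP cells expressed. They were taken as protein-coding genes on chromosome 19 with a symbol of ZNF and digits that reached 1 TPM (transcripts per 1000000) in at least 2 of the 12 libraries. This gave 200 members of the 247 such genes in the table, of which 5 were listed at 0 in every library, and of 16337 genes tested in all. The next 4 genes outside the limit, ZNF442, ZNF724, ZNF223 and ZNF570, reached 1 TPM in 1 library each, and the lowest member by mean level, ZNF737, reached it in 2. Most members reached the limit everywhere, with 178 at or above 1 TPM in all 12 libraries.

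LNCaP is a prostate adenocarcinoma line grown from a lymph node metastasis, and BRG1, encoded by SMARCA4 (also a chromosome 19 gene), is an ATPase of the SWI/SNF chromatin remodelling complex. Cells were transfected with a non-targeting siRNA pool (si-NT) or with 1 of 2 siRNAs against SMARCA4 using DharmaFECT 2, and RNA was taken at 72 h or, after a repeat transfection at 72 h, at 144 h. Each time point had 2 si-NT libraries and 4 BRG1 depleted libraries, made up of 2 for each siRNA. The siRNAs are numbered 2 and 3 here, as in the deposited table, whereas the sample titles number them 1 and 2. The labels do not say whether replicates were separate cultures, so p-values measure only the spread between these libraries, which may be technical. In bulk RNA, fewer cells of a type and less RNA per cell cannot be told apart.

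C2H2 zinc finger proteins bind DNA through tandem fingers, and most of those encoded on chromosome 19 arose by tandem duplication into gene clusters. Many carry a KRAB domain at the amino end, which recruits TRIM28 (KAP1) and, through it, the H3K9 methyltransferase SETDB1, HP1 proteins and the NuRD complex. Members of the family are known for silencing transposable elements and imprinted regions, and the gene clusters themselves carry H3K9me3 over their 3′ ends in many cell types.

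At 72 h SMARCA4 averaged 85.2 ± 16.7 TPM (SD, n = 2) in si-NT and 19.3 ± 1.75 TPM (n = 4) after depletion, and at 144 h 100.5 ± 8.55 and 15.2 ± 2.63 TPM. The luminal markers were present, with KLK3 at 241 TPM or more and KRT8 at 303 TPM or more in every library, while of 8 markers of basal, stromal and leukocyte cells 7 (KRT5, KRT14, TP63, COL1A2, DCN, PTPRC and CD3E) were at 0.33 TPM or lower and the collagen gene COL1A1 was at 3.1 to 9.11 TPM. The ERCC spike-ins took 0.805% to 1.97% of TPM, highest in siRNA 3 replicate 2 at 144 h. Mitochondrial genes took 12.7% to 16.6%, highest in siRNA 2 replicate 2 at 72 h. TPM keeps no read depth, so no counting error is given.

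The members mapped to both arms of the chromosome, 56 on the short arm and 144 on the long arm, and split into 15 clusters where a gap of over 1 Mb between neighbours began a new one. The largest, at the end of the long arm from ZNF628 to ZNF446, held 54 members, and the next, from ZNF175 to ZNF331, held 34. Of 199 members whose coding sequence could be translated, 151 had a match to the KRAB A box, and the number of C2H2 fingers ranged from 0 to 31 with a median of 12. The match is to 1 short pattern, so a member without it may still carry a KRAB domain. ZNF91, a KRAB protein known to silence SVA elements, had the 31 fingers.

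Many member promoters held the letters CCGGAAG, the core of the site bound by ETS factors. Among 180 members with a RefSeq promoter, 81 (45.0%) had this motif on either strand, compared with 36.96% of ZNF genes on other chromosomes, 18.57% of other chromosome 19 genes and 10.67% of all 27305 promoters of the same length. The CCAAT letters were in 51.11% of member promoters and 35.7% of all promoters, and TATAAA in 2.22% and 11.95%. ZNF genes on other chromosomes held CCAAT in 44.02% and TATAAA in 4.89%, and other chromosome 19 genes in 40.89% and 5.79%. The median number of CpG dinucleotides was 21 in the 300 bases, above the 14 of all promoters. It was below the 24 of ZNF genes on other chromosomes and the 27 of other chromosome 19 genes. A match describes letters only and is not evidence of binding.

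The promoters of 6 members that changed at 144 h are shown because they carry the motif in changes of both directions, with ZNF177, ZNF846, ZNF91 and ZNF226 higher and ZNF551 and ZNF726 lower in BRG1 depleted cells. The called members ZNF579 (higher) and ZNF460 (lower) also carry the motif and are not shown. Each promoter shown runs 5′ to 3′ on the strand of its gene, from 250 bases before to 50 after the start, and the capitals mark CCGGAAG or its reverse complement CTTCCGG. In GRCh38.p14 they lie at chr19:9362763-9363062 (ZNF177, plus strand), chr19:9768689-9768988 (ZNF846, minus), chr19:23395422-23395721 (ZNF91, minus), chr19:44164850-44165149 (ZNF226, plus), chr19:57681727-57682026 (ZNF551, plus) and chr19:23914636-23914935 (ZNF726, plus).
ZNF177: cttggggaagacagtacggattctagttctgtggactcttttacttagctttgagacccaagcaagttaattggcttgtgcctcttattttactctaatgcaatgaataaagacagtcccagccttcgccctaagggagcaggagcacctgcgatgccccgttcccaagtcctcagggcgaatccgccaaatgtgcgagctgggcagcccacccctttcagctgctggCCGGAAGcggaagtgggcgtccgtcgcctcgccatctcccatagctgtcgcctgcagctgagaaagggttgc
ZNF846: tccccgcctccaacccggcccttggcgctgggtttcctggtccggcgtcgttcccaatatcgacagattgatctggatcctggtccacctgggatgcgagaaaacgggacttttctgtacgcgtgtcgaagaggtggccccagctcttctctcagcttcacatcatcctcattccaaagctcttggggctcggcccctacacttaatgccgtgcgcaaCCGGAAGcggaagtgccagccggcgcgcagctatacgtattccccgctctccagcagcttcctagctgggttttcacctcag
ZNF91: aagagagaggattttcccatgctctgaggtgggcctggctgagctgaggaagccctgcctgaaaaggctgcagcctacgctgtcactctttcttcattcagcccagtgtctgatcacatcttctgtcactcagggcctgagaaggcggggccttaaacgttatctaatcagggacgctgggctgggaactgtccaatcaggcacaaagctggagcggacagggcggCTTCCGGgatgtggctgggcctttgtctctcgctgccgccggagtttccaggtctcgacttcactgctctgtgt
ZNF226: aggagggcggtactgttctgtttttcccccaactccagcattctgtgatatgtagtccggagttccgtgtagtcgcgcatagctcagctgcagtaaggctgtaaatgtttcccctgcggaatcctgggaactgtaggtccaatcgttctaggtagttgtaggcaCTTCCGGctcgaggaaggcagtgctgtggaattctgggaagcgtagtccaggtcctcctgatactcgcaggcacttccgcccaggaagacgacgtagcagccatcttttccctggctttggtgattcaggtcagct
ZNF551: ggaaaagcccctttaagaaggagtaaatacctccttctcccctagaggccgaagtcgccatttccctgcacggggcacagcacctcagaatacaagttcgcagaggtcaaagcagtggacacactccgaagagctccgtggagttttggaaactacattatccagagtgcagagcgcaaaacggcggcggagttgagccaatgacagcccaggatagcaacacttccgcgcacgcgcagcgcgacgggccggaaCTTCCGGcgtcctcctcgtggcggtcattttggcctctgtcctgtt
ZNF726: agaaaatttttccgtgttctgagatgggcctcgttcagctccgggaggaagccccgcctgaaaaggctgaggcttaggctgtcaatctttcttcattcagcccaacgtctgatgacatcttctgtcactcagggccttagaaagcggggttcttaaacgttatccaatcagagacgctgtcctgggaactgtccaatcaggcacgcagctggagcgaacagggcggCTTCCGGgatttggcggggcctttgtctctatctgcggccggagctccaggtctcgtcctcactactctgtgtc
The motif began at base 227 of the window in both ZNF91 and ZNF726, at base 229 in ZNF177, at base 219 in ZNF846, at base 165 in ZNF226 and at base 255 in ZNF551. The promoters of ZNF91 and ZNF726, genes of the same cluster, were 84.0% identical over an alignment of 306 positions, whereas the other 14 pairs among these 6 promoters were 45.7% to 48.8% identical.

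The members were expressed at low levels. Their median was 4.6 TPM, compared with 11.6 TPM over all genes tested, 8.81 TPM for the 216 ZNF genes of other chromosomes and 24.0 TPM for the 706 other protein-coding genes of chromosome 19. TPM is scaled to gene length, which allows levels to be set side by side between genes. The treatment of multi-mapped reads is not given in the sources used here, so levels of members with close relatives are uncertain. The 14 members above 20 TPM were led by ZNF146 and ZNF358. The 151 members with a KRAB match had a median of 4.16 TPM and the 48 without one a median of 8.02 TPM.

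Summed over the 200 members, the level at 72 h was 1420 ± 21.8 TPM (SD, n = 2) in si-NT and 1549.8 ± 133 TPM (n = 4) after BRG1 depletion, and at 144 h 1414 ± 42.4 and 1448 ± 101 TPM. The depleted and si-NT libraries overlapped at both times, with the depleted sums running from 1412 to 1706 TPM at 72 h and from 1309 to 1547 TPM at 144 h. The highest sum was in siRNA 2 replicate 2 at 72 h, the library with the largest mitochondrial share. The lowest was in siRNA 3 replicate 2 at 144 h, the library with the largest spike-in share, and the part of either share in these sums was not tested.

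At 72 h, 1 member differed between BRG1 depleted and si-NT cells. By limma with Benjamini-Hochberg adjustment over all genes tested, ZNF177 was higher and 0 members were lower at an adjusted p under 0.05, where 1.13% of all genes tested were called higher and 0.557% lower. At an unadjusted p under 0.05, 11 members (5.5%) differed, compared with 14.3% of all genes tested. A positive log2 fold change was seen in 146 of 200 members, 152 of 216 ZNF genes of other chromosomes and 9852 of 16337 genes tested. The median log2 fold change was 0.12 for the members and 0.06 for all genes tested. Scaled to the ERCC spike-ins, the medians became -0.04 and -0.11. In 31 members all 4 depleted libraries lay above both si-NT libraries (15.5%, compared with 16.3% of all genes tested), and in 3 they lay below (1.5%, compared with 6.93%).

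At 144 h, 10 members were lower and 9 higher in BRG1 depleted cells. These are 5.0% and 4.5% of the members, compared with 10.8% and 13.6% of all genes tested. ZNF genes on other chromosomes were called in 20.8% (24 lower, 21 higher) and other chromosome 19 genes in 26.1% (46 lower, 138 higher). The median log2 fold change of the members was 0.02 and that of all genes tested 0.03. The quartiles of the members were -0.20 and 0.18, closer together than the -0.24 and 0.31 (0.305) of all genes tested. A log2 fold change beyond 0.5 was seen in 8.5% of members and 24.6% of all genes tested. Scaled to the ERCC spike-ins, 0 members were called at 144 h, compared with 3.76% of all genes tested called lower and 0.845% higher, and both medians became -0.31. None of the 200 members was both called and past a log2 fold change of 1.5, the limit used here, which 1.1% of all genes tested passed. The scale of the limit is written in more than one way in the source paper. With a limit of 1.5-fold at an adjusted p under 0.01, a reading added after the data were seen, 1 member (ZNF177) passed at 144 h, compared with 8.94% of all genes tested.

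The share of members called was below that of all genes tested in the 3 bands of level above 1 TPM. Between 1 and 5 TPM it was 7.69% of 104 members and 17.3% of genes, between 5 and 20 TPM 9.09% of 77 members and 24.5% of genes, and at 20 TPM or more 21.4% of 14 members and 31.8% of genes. Under 1 TPM, 1 of 5 members was called (20.0%, compared with 11.4% of genes). The spread within groups had a median SD of 0.182 for members and 0.185 for all genes tested on the log2 scale. It was 0.189 for members and 0.234 for genes between 1 and 5 TPM, and 0.175 and 0.187 between 5 and 20 TPM. At 20 TPM or more it was larger for members, at 0.192 and 0.149. The difference between the shares was not tested, since genes are not replicates.

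**Figure D1:**
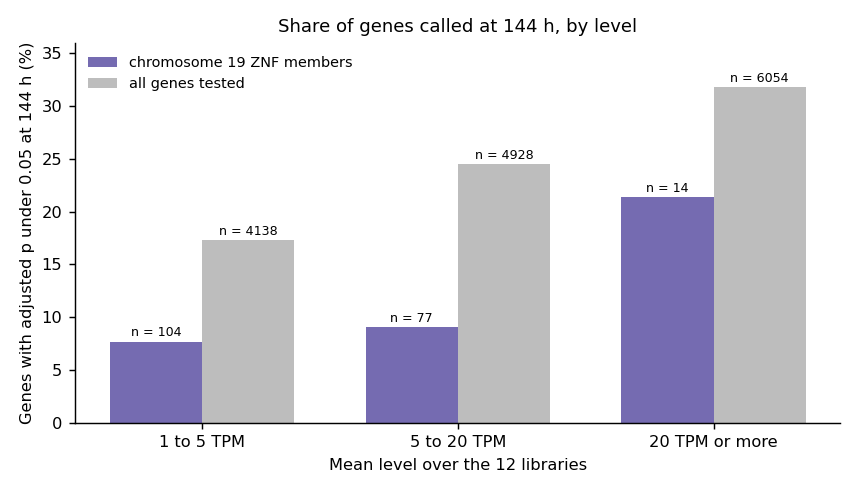
Share called (adjusted p under 0.05, in percent from 0) at 144 h for members and for all genes tested, in 3 bands of mean TPM, with the number of genes above each bar. The member bar is the lower of the pair in all 3 bands, at 7.69%, 9.09% and 21.4%.

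The 19 called members separated their groups at 144 h, with all 4 depleted libraries beyond both si-NT libraries. Over all members this held for 34 below and 38 above (17% and 19%), compared with 22.5% and 26.1% of all genes tested. When all 4 si-NT libraries were taken as 1 set, 6 of the 10 lower members lay below the set and 8 of the 9 higher members lay above it. These members were called on the same libraries and the share over all genes tested was not counted. Their separation therefore adds no support to the calls.

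**Figure D2:**
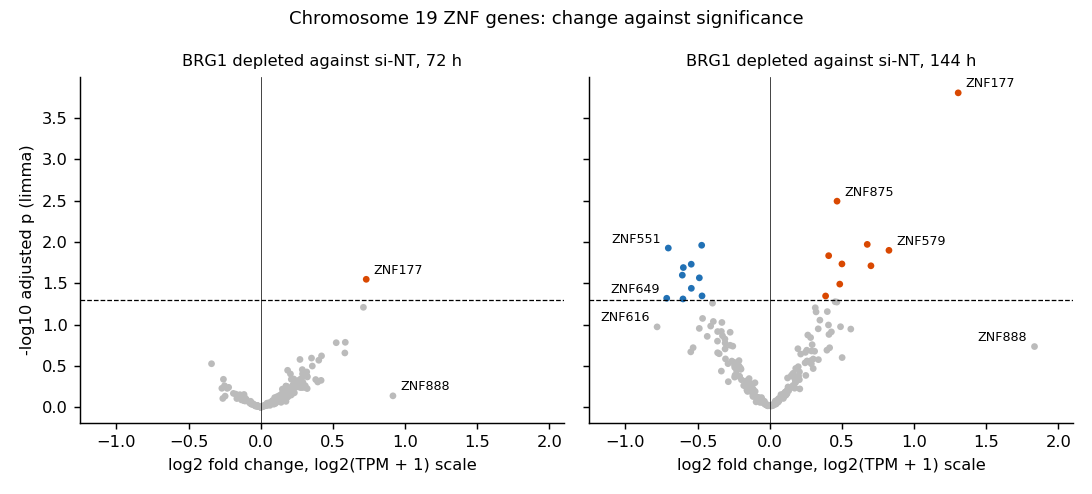
Each point is 1 of the 200 members, with its log2 fold change on the log2(TPM + 1) scale across and -log10 of limma's adjusted p up, at 72 h (left) and 144 h (right). The dashed line is an adjusted p of 0.05, with 1 member above it at 72 h and 10 lower (blue) and 9 higher (orange) above it at 144 h.

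ZNF177 (ENSG00000188629.7, chr19:9473689-9493293, GRCh37), a KRAB zinc finger gene known for promoter methylation in several cancers, was the member called at both time points. It was at 2.70 and 2.98 TPM in si-NT and at 4.95, 5.49, 6.24 and 4.88 TPM in BRG1 depleted cells at 72 h. At 144 h it was at 3.20 and 2.57 TPM in si-NT and at 9.39, 7.24, 8.62 and 9.18 TPM in depleted cells. Every depleted library was above every si-NT library, with the 144 h values above the 72 h values. The log2 fold change was 0.73 at 72 h (limma adjusted p = 0.0283) and 1.31 ± 0.14 (SE) at 144 h (adjusted p = 0.000156). The 72 h call was lost when any 1 of the 6 libraries of that time other than siRNA 2 replicate 1 was left out, and the 144 h call was lost under ERCC scaling (adjusted p = 0.0623), both with the direction kept.

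Of the other members in the cluster of ZNF177, ZNF846 was called at 144 h. ZNF559, which lies just before it, was at 13.49 and 12.82 TPM in si-NT and at 17.09, 12.25, 14.32 and 10.51 TPM in depleted cells at 144 h, so the groups overlapped (log2 fold change 0.02). At 72 h it was at 14.13 and 16.03 TPM in si-NT and at 18.56, 22.15, 16.97 and 16.93 TPM in depleted cells. These lay above without overlap, as in 16.3% of all genes tested, but ZNF559 was not called (limma adjusted p = 0.488). The read-through gene ZNF559-ZNF177, which shares sequence with both, was at 1.38 and 1.20 TPM in si-NT and at 3.83, 2.32, 1.57 and 1.67 TPM in depleted cells (log2 fold change 0.50, limma adjusted p = 0.251). How reads shared by the 3 genes were assigned is not given in the sources used here, so their separate levels are uncertain. ZNF846 (chr19:9862669-9903856, GRCh37), another KRAB gene of this cluster, was at 1.4 and 0.6 TPM in si-NT and at 2.52, 2.20, 1.91 and 2.14 TPM in depleted cells at 144 h. Its log2 fold change was 0.70 ± 0.19 (limma adjusted p = 0.0194). At 72 h ZNF846 was at 1.18 and 0.83 TPM in si-NT and at 1.70, 2.51, 2.03 and 1.81 TPM in depleted cells, without overlap but not called (adjusted p = 0.164). ZNF562 and ZNF426, which lie between ZNF177 and ZNF846, had log2 fold changes of -0.34 and -0.53 at 144 h and did not pass the test. At 72 h ZNF562 was at 12.38 and 11.45 TPM in si-NT and at 13.85, 14.17, 15.18 and 13.44 TPM in depleted cells. It lay above without overlap and was not called (limma adjusted p = 0.526). ZNF559, ZNF559-ZNF177, ZNF562 and ZNF426 were chosen after their values were seen.

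Among the other higher members, ZNF875, a KRAB gene formerly named HKR1, had the smallest standard error of the called members. It was at 27.24 and 27.55 TPM in si-NT and at 39.56, 37.57, 37.46 and 38.33 TPM in depleted cells at 144 h, a log2 fold change of 0.47 ± 0.09 (limma adjusted p = 0.0032). ZNF579 and ZNF524, neighbouring genes without a KRAB match, rose by 0.83 ± 0.20 (adjusted p = 0.0126) and 0.68 ± 0.16 (adjusted p = 0.0107) on the log2 scale. ZNF524 was at 17.64 and 15.19 TPM in si-NT and at 26.13, 30.86, 21.58 and 29.34 TPM in depleted cells. The KRAB genes ZNF30 (log2 fold change 0.50), ZNF226 (0.41) and ZNF211 (0.39) were also higher. The call of ZNF211 was lost in 10 of 21 alternatives (adjusted p up to 0.971). ZNF211 fell outside the rule for naming members and was named after its value was seen.

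ZNF91 (ENSG00000167232.9, chr19:23487793-23578273, GRCh37) was at 10.59 and 10.10 TPM in si-NT and at 14.14, 12.92, 18.52 and 14.43 TPM in depleted cells at 144 h. The groups did not overlap, and the log2 fold change was 0.48 ± 0.15 (limma adjusted p = 0.0324). ZNF726 (ENSG00000213967.6, chr19:24097678-24127961, GRCh37), the gene of its cluster with the promoter 84.0% identical to that of ZNF91, went the other way. It was at 5.12 and 4.87 TPM in si-NT and at 2.63, 3.61, 3.97 and 2.44 TPM in depleted cells, a log2 fold change of -0.54 ± 0.17 (adjusted p = 0.0364). The 2 other members of this cluster, ZNF675 and ZNF254, had log2 fold changes of -0.14 and -0.13 and did not pass the test. The call of ZNF91 was lost in 6 of 21 alternatives, where its log2 fold change ran from 0.11 to 0.548. That of ZNF726 was lost in 7 of 20, with log2 fold changes from -0.855 to -0.457.

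The member with the highest mean level, ZNF146, was among the lower ones. It encodes a protein of 10 fingers with no KRAB match, also known as OZF. It was at 75.54 and 74.15 TPM in si-NT and at 62.40, 52.27, 55.58 and 45.82 TPM in depleted cells at 144 h, a log2 fold change of -0.47 ± 0.11 (limma adjusted p = 0.0110). At 72 h it was at 76.22 and 77.82 TPM in si-NT and at 66.92, 77.78, 68.89 and 70.84 TPM in depleted cells and the highest depleted value lay between the si-NT values.

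The largest called fall was that of ZNF649, a KRAB repressor known to act on serum response elements. It was at 4.67 and 4.32 TPM in si-NT and at 2.68, 2.48, 2.82 and 1.57 TPM in depleted cells at 144 h, a log2 fold change of -0.71 ± 0.24 (limma adjusted p = 0.0481). At 72 h its depleted libraries held 4.25, 2.72, 5.90 and 3.61 TPM and its si-NT libraries 3.60 and 2.47 TPM, so the groups overlapped at that time. ZNF551 was at 4.59 and 5.80 TPM in si-NT and at 3.06, 2.71, 3.60 and 1.97 TPM in depleted cells at 144 h, a log2 fold change of -0.70 ± 0.17 (adjusted p = 0.0119). ZNF844 (-0.61), ZNF460 (-0.60), ZNF738 (-0.60), ZNF614 (-0.54), ZNF714 (-0.49) and ZNF850 (-0.47) were the other lower members. The calls of ZNF649, ZNF460 and ZNF850 were lost in 11, 15 and 14 of the 20 alternatives run, with adjusted p up to 0.207, 0.243 and 0.346. Of these members, ZNF850 was named after its value was seen, and all those of this paragraph except ZNF714 had a KRAB match.

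The lower calls rested in part on 1 library. In 9 of the 10 lower members the lowest depleted value at 144 h was that of siRNA 3 replicate 2, the library with 1.97% of spike-ins, as it was in 113 of all 200 members. Without it, 5 members were lower and 9 higher, and 8.81% and 13% of all genes tested. Fewer calls remained without a si-NT library of 144 h, in the members as in all genes tested. Without si-NT replicate 1, 1 member was lower and 6 higher (4.21% and 6.55% of all genes tested), and without replicate 2, 0 were lower and 2 higher (2.44% and 4.6%). All 19 kept their direction in each of these fits.

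**Figure D3:**
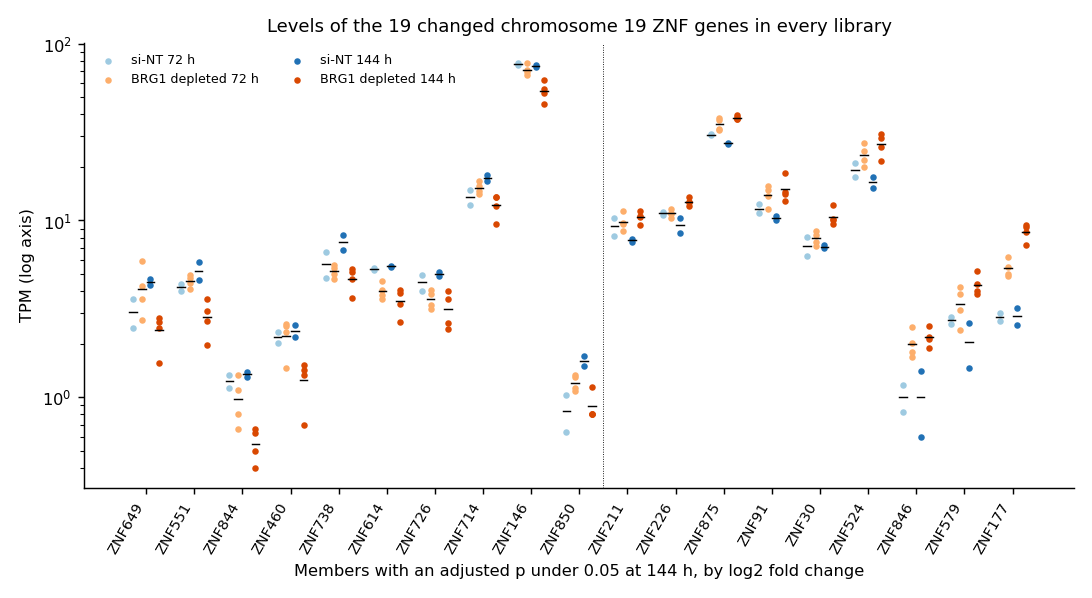
TPM (log axis) of the 19 members called at 144 h in each of the 12 libraries, coloured by group, with a bar at each group mean. Left of the dotted line the 4 BRG1 depleted libraries of 144 h lie below both si-NT libraries of that time, and right of it they lie above them.

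The members named for their known roles or level, other than those above, did not pass the test. ZNF274, which recruits SETDB1 to the 3′ ends of zinc finger genes, was at 9.28 and 8.19 TPM in si-NT and at 10.99, 11.15, 10.60 and 9.48 TPM in depleted cells at 144 h (log2 fold change 0.25, limma adjusted p = 0.217). ZNF331, an imprinted gene, was at 12.14 and 10.00 TPM in si-NT and at 12.51, 10.49, 10.74 and 8.77 TPM in depleted cells, and the groups overlapped. ZNF224, known as a repressor of aldolase A, and ZNF765 had log2 fold changes of 0.28 and -0.20. Of the most abundant members, ZNF358 (0.34), ZNF444 (0.31) and ZNF561 (-0.24) also did not pass.

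The widest difference among the members belonged to a gene that failed the test. ZNF888, chosen after its values were seen, had a log2 fold change of 1.83 at 144 h with a standard error of 0.95 (limma adjusted p = 0.185). It was at 0.15 and 0.32 TPM in si-NT and at 3.77, 0.23, 10.68 and 4.43 TPM in depleted cells at 144 h. At 72 h it was at 0.24 and 0.25 TPM in si-NT and at 0.15, 11.70, 0.31 and 0.59 TPM in depleted cells. It was thus above 3 TPM in 4 depleted libraries, spread over both siRNAs and both times, and under 1 TPM in the other depleted libraries and in all si-NT libraries. ZNF888 was a member only through these 4 depleted libraries, so the limit for members itself favoured a difference in this direction. ZNF616 of the same cluster, also chosen after its values were seen, had the lowest log2 fold change of the members and did not pass the test either. It was at 6.90 and 6.44 TPM in si-NT and at 6.18, 4.35, 2.73 and 1.77 TPM in depleted cells at 144 h (log2 fold change -0.78, adjusted p = 0.107). Both genes have close relatives in their cluster, so reads may be shared among them.

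Along the chromosome, called members were spread over 6 clusters for the lower and 6 for the higher. In cluster 5, the 14 members from ZNF101 to ZNF429 (chr19:19779605-21739072, GRCh37), 12 members had a value below 0 at 144 h, the median log2 fold change was -0.23, and ZNF714 and ZNF738 were called lower. At 72 h, 9 of the 14 were positive and the median was 0.12. In cluster 8, the 5 members from ZNF302 to ZNF792 (chr19:35168544-35455133, GRCh37), all 5 were positive at 144 h with a median of 0.28, and ZNF30 was called higher. Cluster 12, with 20 members from ZNF575 to ZNF296, had 15 positive values and a median of 0.17. Its members ZNF404 and ZNF575, both positive, reached 1 TPM in depleted libraries only, so the limit for members favoured their direction. The large clusters 14 and 15 had medians of -0.04 and 0.04. Members of 1 cluster share the same libraries and related sequences, so no test was made of these medians, and these clusters were picked out with their values in view.

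**Figure D4:**
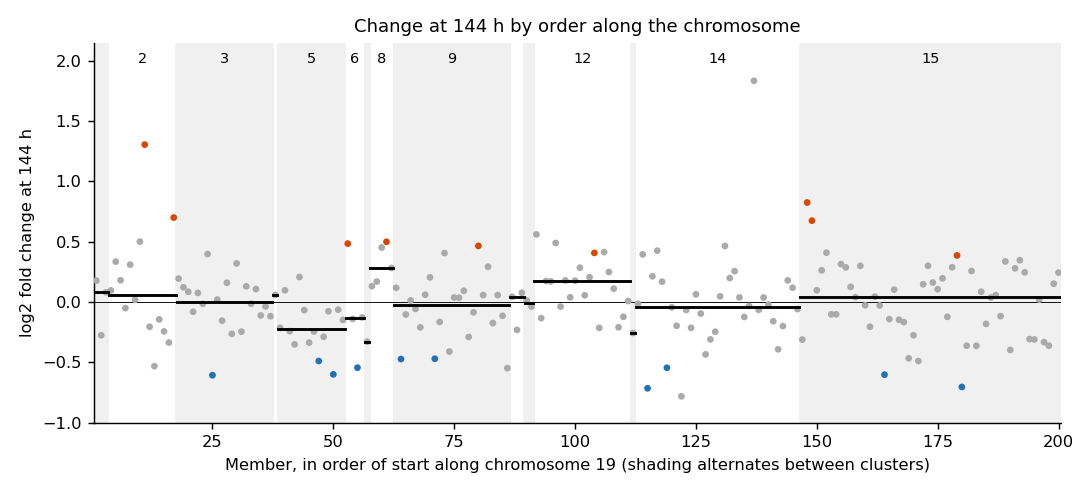
Log2 fold change at 144 h (log2(TPM + 1) scale) of the 200 members in order along chromosome 19, with shading that alternates between clusters, a black bar at each cluster median, and numbers on clusters of 4 or more members. Cluster 5 lies mostly below 0 with a median of -0.23 and cluster 8 wholly above 0 with a median of 0.28.

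Called members were found with and without a KRAB match and the ETS letters. Of 151 members with a KRAB match, 8 were lower and 7 higher (9.93%), and of 48 without one, 2 were lower and 2 higher (8.33%). Of 81 members with the ETS motif, 3 were lower and 5 higher (9.88%), and of 99 without it, 5 were lower and 1 higher (6.06%). All these shares were below that of all genes tested, of which 10.8% were lower and 13.6% higher (24.4%). None of these shares was tested against the other.

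The change itself was compared between the time points. By limma, 0 members differed at an adjusted p under 0.05, where 0.0184% of all genes tested did, and 13 members (6.5%) had an unadjusted p under 0.05, compared with 11.9% of genes. Among the 10 lower members 5 were positive and 5 negative at 72 h by log2 fold change, and among the 9 higher members 8 were positive. Over all 200 members 146 were positive at 72 h, and 9852 of 16337 genes tested. In si-NT cells alone, 0 members were called by limma between 144 h and 72 h (0.0% of all genes tested were called), and 4 members (2.0%) had an unadjusted p under 0.05, compared with 4.11% of all genes tested.

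The RNA of genes encoding the proteins through which KRAB zinc fingers act was measured in the same libraries, which hold no protein levels. Of 33 genes of the corepressor list that were tested, 7 were lower (21.2%, compared with 10.8% of all genes tested) and 2 higher (6.06%, compared with 13.6%) at 144 h. Together these are 27.3% of the list, near the 24.4% of all genes tested, and the median log2 fold change was -0.23. By limma 0 were called at 72 h, where 4 (12.1%) had an unadjusted p under 0.05, compared with 14.3% of all genes tested. The lower genes were the HP1 genes CBX3 (-0.55) and CBX1 (-0.38), the histone deacetylase HDAC2 (-0.48), the HUSH subunit PPHLN1 (-0.40), the histone chaperone RBBP7 (-0.25), the maintenance DNA methyltransferase DNMT1 (-0.68) and the H3K9 methyltransferase SUV39H2 (-1.20). The higher genes were the NuRD helicase CHD3 (0.69) and RESF1 (0.72), a partner of SETDB1. The call of RBBP7 was lost in 13 of 21 alternatives (adjusted p up to 0.207). CBX3 was at 342 ± 27.2 TPM (SD, n = 2) in si-NT and 232 ± 5.41 TPM (n = 4) in depleted cells at 144 h. TRIM28 was at 519 ± 11.2 TPM and 425 ± 41.6 TPM (log2 fold change -0.29, limma adjusted p = 0.0573), and SETDB1 at 34.1 ± 2.93 and 34.3 ± 3.45 TPM. Whether these levels bear on the members was not tested.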

How the data were processed

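RNA from LNCaP cells was sequenced in 12 libraries (4 groups of si-NT or BRG1 depleted cells at 72 h or 144 h). As the methods state, the authors made stranded mRNA libraries with ERCC spike-ins, used STAR to map reads to GRCh37 and featureCounts to count them, normalised with the spike-ins and determined TPM on GENCODE v19. The deposited values are TPM, and each library sums to about 1000000. The strand setting and treatment of multi-mapped reads are not given in the sources used here. Groups were compared within each time point, as in the study. Both SMARCA4 siRNAs were taken as 1 group here, and whether the study pooled them for its gene tests is not given in the sources used here.

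TPM was taken to log2 with a pseudocount of 1, so fold changes of low genes are understated. The 16337 genes with 1 TPM or more in at least 2 libraries were fitted with limma 3.58.1 (R 4.3.3, eBayes with a trend) in 4 groups sharing 1 spread, with Benjamini-Hochberg adjustment, and the procedure was tested on simulated data. Named members also had a two-sided exact permutation test of TPM, the 4 depleted libraries of a time point against all 4 si-NT libraries. Its p-values were adjusted by Benjamini-Hochberg over 48 tests. The smallest permutation p was 0.0286, the least that 4 against 4 libraries can give, and its adjusted p was 0.0723. No named member therefore passed an adjusted p under 0.05 by this test. At 144 h, 14 of the 17 called and named members had the smallest p. Python 3.11.15, pandas 2.3.3, SciPy 1.17.1 and matplotlib 3.10.9 were used otherwise. Coordinates and symbols come from GENCODE release 44 lifted to GRCh37, not the authors' release. KRAB and finger counts come from coding sequences of that annotation translated on the GRCh37 sequence (KRAB: L, Y or H, 2 residues, V, M or L, 1 residue, E, then N, T or K, and fingers: C, 2 to 4 residues, C, 12 residues, H, 3 to 5 residues, H). ZNF274 was left out there because its reading frame was not clean. Promoters are RefSeq windows of 300 bases on GRCh38.p14, found for 180 members. Of the list of KRAB corepressor genes, UHRF1 was not matched and SUV39H1 was too low to test.

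The members and gene lists were chosen with earlier results of these data known. Named members were those called at 72 h, the 8 largest falls and rises among members called at 144 h without overlap between groups, the 5 with the highest mean, and ZNF91, ZNF274, ZNF331, ZNF649, ZNF765, ZNF224 and ZNF146 for known roles. Alternatives were another pseudocount (0.1), median-of-ratios or ERCC scaling, other filters, a replicate block, no trend, fewer or combined si-NT and depleted libraries, an adjusted p under 0.01, and each library left out.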

Additional observations from a re-analysis of the deposited data

Results flagged for a closer look

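Among 50 groups of 4 BRG1 depleted libraries examined (24 named members and the summed level at each time point), 2 held a library far from the other 3, about as many as chance gives at 1 in 20 groups. ZNF358 was at 76.51 TPM in siRNA 2 replicate 2 at 72 h and at 57.64, 58.84 and 58.93 TPM in the other depleted libraries of that time. ZNF444, a SCAN domain zinc finger gene, was at 40.94 TPM in the same library and at 36.41, 36.75 and 37.17 TPM in the others. That library also had the highest sum over the members and the highest mitochondrial share (16.6%), and the part of that share was not tested. Neither gene was called at 72 h.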

How the results depend on the processing

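The 0 lower calls at 72 h, the 0 calls in the comparison of changes between times and the 0 calls between si-NT time points held under each alternative run. The number of members higher at 72 h (1) became 2 with median-of-ratios size factors, 0 with ERCC scaling, 0 in the 6 libraries of the time point, 6 with si-NT of both times combined and 0 at an adjusted p under 0.01, and ranged from 0 to 2 with 1 library left out. The 10 lower members at 144 h became 15 with median-of-ratios size factors (11 higher, 26 calls that include all 19), 0 with ERCC scaling, 5 with no filter, 3 of 91 with a mean of at least 5 TPM, 5 in the 6 libraries of 144 h and 0 at an adjusted p under 0.01, and ranged from 0 to 11 with 1 library left out. The 9 higher members became 0 with ERCC scaling, 17 with combined si-NT and 2 at an adjusted p under 0.01, and ranged from 2 to 11 with 1 library left out. With a pseudocount of 0.1, 1 member passed a log2 fold change of 1.5, and with a limit of 1.5-fold at an adjusted p under 0.01, added after the data were seen, 1 did at 144 h and 0 at 72 h. ERCC scaling moved the median of all genes tested from 0.03 to -0.31 at 144 h and from 0.06 to -0.11 at 72 h, and that of the members to -0.31 (-0.3071) and -0.04 (-0.0407). All 19 called members kept their direction under it, and 3.76% and 0.845% of all genes tested were then lower and higher. Under it ZNF358 (-0.062), ZNF224 (-0.046), ZNF444 (-0.079) and ZNF274 (-0.119), none of them called, changed sign as they stood at 144 h. Of 48 values of named members, 13 changed sign as they stood and 0 did relative to the median of all genes. ZNF331 ranged from -0.186 to 0.071 with 1 library left out. With the replicate block 8 members were lower and 9 higher, all 17 among the 19. Replicate numbers did not pair the libraries: the correlations of deviations between libraries of the same number ran from -0.229 to 0.31, and 6 of 12 libraries correlated best with their own number. The causes of these moves were not tested. TPM holds no depth, which limits what can be said of members near 1 TPM.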
